A study of Mus musculus with 6 samples.

Results

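The T-box transcription factors of the primitive streak and early mesoderm were followed across arrays of mouse embryoid bodies. Of the 21474 genes named on the array, 8 belonged to this set: T (brachyury), Eomes, Tbx1, Tbx2, Tbx3, Tbx4, Tbx5 and Tbx20. They were found by exact gene symbol in the platform annotation or in the symbol column of the second deposited table, which gave 19 probes. Embryoid bodies, the aggregates in which embryonic stem (ES) cells differentiate, were harvested at day 3. RNA was hybridised to 6 Illumina bead arrays, of which 3 were labelled KO (endoglin knockout ES cells; KO-1, KO-2 and KO-3) and 3 were labelled WT (wild type E14 control ES cells; WT-1, WT-2 and WT-3). The strain label was C57BL/6 for both, although E14 is a line of another strain background. No treatment was labelled for either, and the knockout allele, the number of clones and any pooling are not stated by the labels or the series. Since nothing in the labels ties replicates to separate cultures, the p-values cover the spread between these arrays, which may be technical.

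T-box proteins bind DNA through a shared domain, the T-box, and act in small overlapping groups as germ layers form. In the mouse embryo, Nodal and Wnt signals switch on Eomes and T in the primitive streak. Eomes is needed there for definitive endoderm and the earliest mesoderm, including cardiac progenitors, and T for posterior mesoderm and the notochord. The other members are better known from later stages or other cells: Tbx3 from the self-renewal of ES cells and later from limb and heart, and Tbx1, Tbx2, Tbx4, Tbx5 and Tbx20 from pharyngeal, limb and heart mesoderm.

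The upstream sequences of T and Eomes are shown because these are the 2 streak regulators of the set. Their brightest probes also varied differently between the arrays. Each line gives the 250 bases before the start that the table uses, on the gene's own strand, 5′ to 3′, from the RefSeq promoter table of build GRCm38.p6, with motif matches in capitals. T lies on the plus strand, with this window at chr17:8434173-8434422, and Eomes on the plus strand, with its window at chr9:118477939-118478188. The RefSeq gene table of this build starts Eomes at 118478186, so the last 3 bases of its window lie within that gene.
T: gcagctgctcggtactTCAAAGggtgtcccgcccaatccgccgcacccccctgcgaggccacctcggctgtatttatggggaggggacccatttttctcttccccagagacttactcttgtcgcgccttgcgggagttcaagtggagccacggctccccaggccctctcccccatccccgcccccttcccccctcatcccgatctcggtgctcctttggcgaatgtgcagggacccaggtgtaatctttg
Eomes: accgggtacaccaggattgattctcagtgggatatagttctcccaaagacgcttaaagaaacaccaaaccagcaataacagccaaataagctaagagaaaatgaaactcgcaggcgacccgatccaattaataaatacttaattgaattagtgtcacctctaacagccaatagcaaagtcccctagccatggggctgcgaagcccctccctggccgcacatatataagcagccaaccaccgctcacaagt

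The capitals in the T window are 1 match, on the minus strand, to CTTTGA, the letters searched for TCF/LEF factors, which carry the Wnt signal. It lies 234 to 229 bases before the start. Of 32851 upstream windows of this length, 13.8% held these letters on either strand. The Eomes window held 0 matches to it. Neither window held TCACACC, a T-box core found in 3.33% of windows. TGTNNATT, searched for FOXH1, a partner of Smads in Nodal signalling, was in neither window and in 10.9% of all. AGATAA, for GATA factors, was in neither and in 9.99% of all. All motifs were searched on both strands, and the match in the T window overlapped no other. A match or its absence describes the letters of these windows and says nothing about binding. The T window had a GC content of 62.8% and the Eomes window one of 46.4%.

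The arrays did not group by label. Their medians were all 45.1 on the linear intensity scale, and 47.4% to 48.0% of probes lay above the background limit of 46.0 to 46.2. The targeted gene, Eng, had 73.5, 45.4 and 48.7 on KO-1, KO-2 and KO-3, against 87.0, 90.6 and 44.4 on WT-1, WT-2 and WT-3, in its brighter probe. The array labelled KO-1 thus lay above the other KO arrays and the array labelled WT-3 below the other WT arrays. The position of this probe relative to the deleted part of Eng was not stated, so it is a limited check of the labels. Between KO-1 and either WT-1 or WT-2, 0 and 2 features differed at least 2-fold, and between WT-3 and either KO-2 or KO-3, 0 did. KO-1 was 2-fold apart from KO-2 at 84 features, and WT-3 from WT-1 at 104. All directions below follow the labels as deposited, and the difference of each tested member is also given without KO-1 and WT-3. In that setting Eng differed by -0.675 on the log2 scale (SE 0.08, limma adjusted p = 0.0004629). The omission was added once the values were known and rests on them, so what it gives is not independent evidence of an effect of the knockout. All 6 arrays share 1 slide, on which WT-1, KO-1 and WT-2 took positions A to C and KO-2, WT-3 and KO-3 positions D to F. Slide position and this division of the arrays cannot be told apart. Whether the labels of KO-1 and WT-3 were exchanged was not tested; with these 2 labels exchanged, label and slide position would coincide, and the differences between labels would be other than those given here. ES and epiblast markers (5 of 5), streak markers (4 of 4) and nascent mesoderm markers (4 of 4) lay above the background limit on all 6 arrays, while 4 of 6 fibroblast feeder markers (Col1a1, Col1a2, Lum and Postn) were above it on 0 arrays.

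T was bright on every array. Its probe, the only one on the platform that the rule found for it, measured 5612, 4316 and 4157 on KO-1, KO-2 and KO-3, against 5052, 5323 and 3591 on WT-1, WT-2 and WT-3. The 2 labels overlapped: KO-1, WT-2 and WT-1 were the 3 highest arrays and WT-3 the lowest, with a highest-to-lowest ratio of 1.56. On the background-corrected log2 scale T averaged 12.19 ± 0.23 under the KO label and 12.17 ± 0.31 under the WT label (SD, n = 3 each). The log2 difference, KO minus WT, was 0.02 (SE 0.17, 95% interval -0.38 to 0.42, limma adjusted p = 0.9995). Without KO-1 and WT-3 it was -0.29 (SE 0.08, limma adjusted p = 0.0543), short of the threshold of 0.05 and of the opposite sign. With slide position (A to C, or D to F) as a block it was 0.18 (SE 0.07, 95% interval 0.02 to 0.33), which did not pass after adjustment (limma adjusted p = 0.9997). In bulk samples such as these, fewer cells of a type and less RNA per cell cannot be told apart.

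In its brightest probe, Eomes varied least of the 3 bright members, relative to its own level. Its brightest probe measured 1382, 1146 and 1370 on KO-1, KO-2 and KO-3, against 1319, 1255 and 1187 on WT-1, WT-2 and WT-3. The labels overlapped, KO-1 was highest and KO-2 lowest, and the ratio of the extremes was 1.21. The log2 difference was 0.05 (SE 0.09, 95% interval -0.16 to 0.25, limma adjusted p = 0.9995), and without KO-1 and WT-3 it was -0.04 (SE 0.10, limma adjusted p = 0.889). For this probe the 95% interval of the fold, KO over WT, ran from 0.895 to 1.19.

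The other two Eomes probes did not share one pattern. The middle one, named through a cDNA clone, measured 392, 356 and 363 under the KO label, against 248, 327 and 355 under the WT label. Its highest-to-lowest ratio was 1.58 and its log2 span 0.61, near those of T. Here the KO arrays all lay above the WT arrays, by a log2 difference of 0.25 (SE 0.12, 95% interval -0.02 to 0.53) that did not pass (limma adjusted p = 0.9996 with every probe tested). Such separation by label occurred in 6.93% of all features. The dimmest probe measured 104, 86.4 and 93.0 under the KO label, against 86.0, 90.3 and 88.4 under the WT label, and its labels overlapped.

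Tbx3 had the widest spread of the members, and the spread lay within both labels. Its brighter probe measured 356, 84.9 and 99.99 on KO-1, KO-2 and KO-3, against 402, 385 and 78.5 on WT-1, WT-2 and WT-3. The arrays fell into a high set of WT-1, WT-2 and KO-1 and a low set of KO-3, KO-2 and WT-3, with no value in between, so that each label held arrays of both kinds. The highest array was 5.12 times the lowest. Within the high set KO-1 lay below both WT arrays, and within the low set KO-2 and KO-3 lay above WT-3.

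On the corrected log2 scale Tbx3 averaged 7.42 ± 1.00 under the KO label and 8.02 ± 1.18 under the WT label (SD, n = 3 each). The difference was -0.60 (SE 0.65, 95% interval -2.11 to 0.91, limma adjusted p = 0.9995), smaller than the spread within either label. Without KO-1 and WT-3 it was -1.855 (SE 0.09, limma adjusted p = 4.91e-07). With the slide position (A to C, or D to F) as a blocking term, it was 0.02 (SE 0.09, limma adjusted p = 0.9997). The Tbx3 estimate thus depended on how the arrays KO-1 and WT-3 were handled.

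The second Tbx3 probe gave the same order of arrays but for the highest pair. It measured 84.3, 55.3 and 59.7 under the KO label, against 84.8, 92.4 and 54.9 under the WT label, again with KO-1, WT-1 and WT-2 high. Its highest-to-lowest ratio of 1.68 was smaller than that of the brighter probe, and it lay nearer to the background limit. The second deposited table listed the brighter probe under a predicted locus similar to T-box 3, whereas the platform annotation assigns both to Tbx3. Signal from a similar sequence was not tested.

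**Figure D1:**
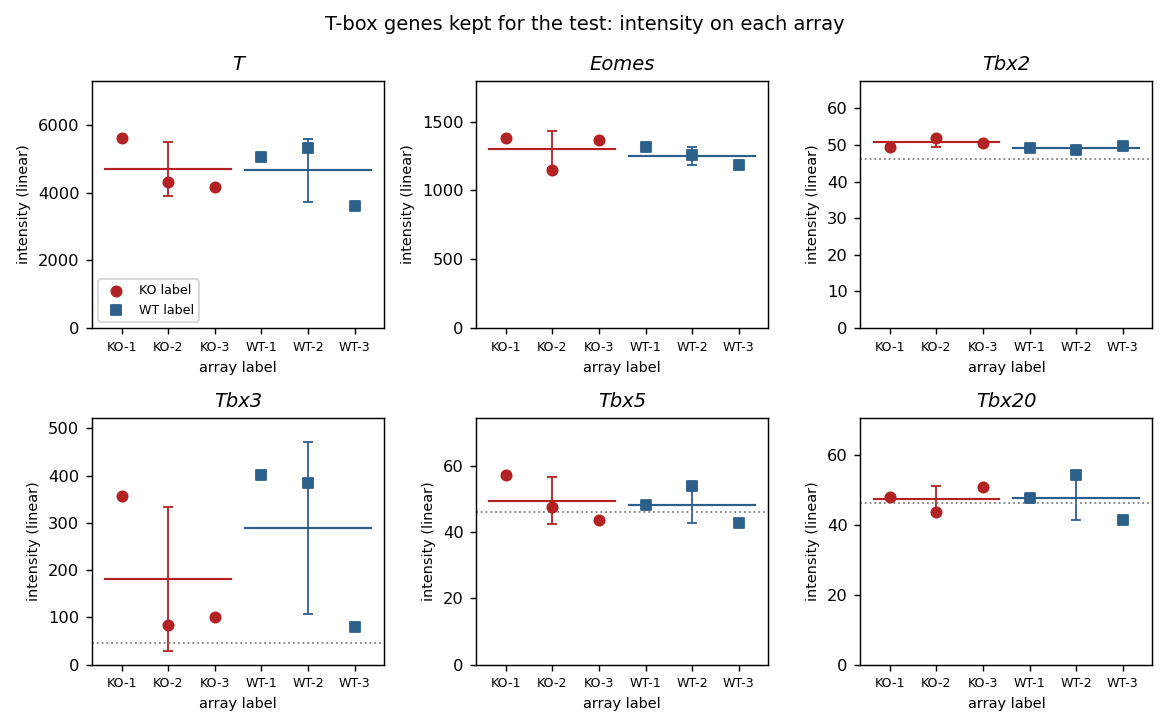
Deposited intensity (linear axis from 0) on each array for the brightest probe of the 6 T-box genes that were tested, with KO-labelled arrays as circles and WT-labelled arrays as squares; horizontal lines are label means, error bars are SD (n = 3 each), and the dotted line is the highest background limit, 46.2. Tbx3 lay between 356 and 402 on KO-1, WT-1 and WT-2 and between 78.5 and 99.99 on the others, while Tbx2, Tbx5 and Tbx20 lay near the limit.

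The arrays lay further apart in Tbx3 than in most features. On the corrected log2 scale it spanned 2.07 over the 6 arrays, the 17th widest of 16005 features, of which 0.931% spanned at least 1. The span of T was 0.64 and that of the brightest Eomes probe was 0.27, against a median of 0.26 over all features. T, Tbx5 and Tbx3 shared their 3 highest arrays (KO-1, WT-1 and WT-2), and Eomes did not have these as its 3 highest.

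The genes with the pattern nearest to that of Tbx3 were Cxcr4, Pdgfra and Bmper. Likeness was the root mean square difference of the log2 values over the 6 arrays, after each gene's own mean was subtracted, among 12498 other named genes. The nearest was Cxcr4, a chemokine receptor, at 0.0632, with 614, 151 and 160 on KO-1, KO-2 and KO-3, against 641, 589 and 143 on WT-1, WT-2 and WT-3. Pdgfra, the receptor for PDGF found on early mesoderm, followed at 0.0770, with 491, 124 and 131 under the KO label, against 524, 500 and 126 under the WT label. Bmper, which encodes a secreted BMP-binding protein, was at 0.0774, with 271, 49.8 and 68.4 under the KO label, against 298, 305 and 51.6 under the WT label. In each of these 3 genes KO-1, WT-1 and WT-2 were high and the other arrays low. T and Eomes spanned less than 1 on the log2 scale, so no nearest patterns were sought for them.

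Summed markers of several cell types divided the arrays as Tbx3 did, in either direction. The summed intensity of the 4 nascent mesoderm markers was 3772, 1101 and 1127 on KO-1, KO-2 and KO-3, against 4409, 4069 and 866 on WT-1, WT-2 and WT-3. Mesp1 made up most of this sum, with 3105 on KO-1 and 3723 on WT-1. Kdr, another of the 4, did not split so. It measured 108, 120 and 91.2 under the KO label, against 84.1, 111 and 130 under the WT label. For the 6 extraembryonic endoderm markers the sum was 1985, 1280 and 1285 on KO-1, KO-2 and KO-3, against 2171, 2262 and 1080 on WT-1, WT-2 and WT-3. Of these 6 markers, 3 lay above the background limit on all 6 arrays. Gata6 alone measured 1324, 621 and 642 on KO-1, KO-2 and KO-3, against 1471, 1530 and 492 on WT-1, WT-2 and WT-3. Sox17 split the same way, with 355, 218 and 239 under the KO label, against 354, 354 and 156 under the WT label. The rest of the endoderm sum (Sox7, Dab2, Afp and Ttr together) ran the other way and was lower on KO-1, WT-1 and WT-2. The 4 primitive streak markers summed to 5441, 3523 and 3728 under the KO label, against 5668, 5666 and 3204 under the WT label. Of these, Evx1, Mixl1 and Wnt3 split as the sum did, but Fgf8 ran the other way. Fgf8 measured 1087, 1284 and 1421 under the KO label, against 1164, 1017 and 1296 under the WT label. The mesoderm, endoderm and streak sums were higher on KO-1, WT-1 and WT-2 than on the other arrays. The 5 ES and epiblast markers ran the other way, with 23715, 27179 and 27210 on KO-1, KO-2 and KO-3, against 19234, 22479 and 30293 on WT-1, WT-2 and WT-3. Fibroblast feeder markers summed to 366 to 401 under the KO label and 373 to 383 under the WT label. The sum of the 3 neural ectoderm markers was also higher on KO-1, WT-1 and WT-2. It was 230, 196 and 192 under the KO label, against 215, 226 and 202 under the WT label. Of these 3 markers, Sox1 was above the background limit on 0 arrays. The trophoblast sum did not divide the arrays so, with 835, 866 and 918 under the KO label, against 878, 910 and 832 under the WT label. Within it, Cdx2 and Hand1 were higher on KO-1, WT-1 and WT-2, and the rest of the sum was lower there. Cdx2 measured 281, 160 and 172 under the KO label, against 316, 361 and 137 under the WT label. Hand1 lay between 29.9 and 73.2, and Elf5 was above the background limit on 0 arrays. The part of these cell types in the Tbx3 values was not tested.

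**Figure D2:**
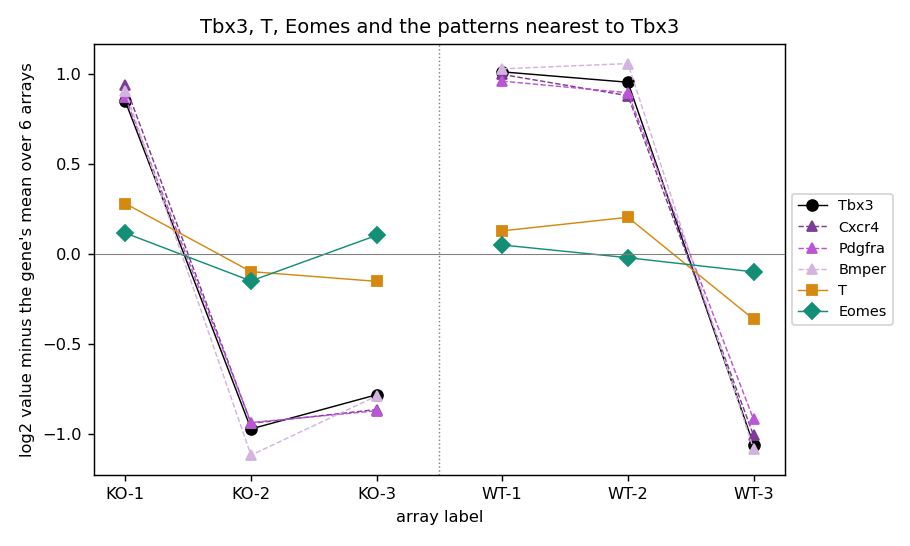
Log2 value of each gene minus its own mean over the 6 arrays (vertical axis) on each array (horizontal axis), for Tbx3 (circles), its 3 nearest patterns Cxcr4, Pdgfra and Bmper (triangles), T (squares) and Eomes (diamonds). Tbx3 and its neighbours were high on KO-1, WT-1 and WT-2 and low on the other arrays. T moved less, over a span of 0.64, and Eomes, shown by its brightest probe, spanned 0.27.

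Tbx2, a repressor of the developing heart and limb closely related to Tbx3, was measured just above background. Its brighter probe had 49.5, 51.9 and 50.6 on KO-1, KO-2 and KO-3, against 49.2, 48.6 and 49.6 on WT-1, WT-2 and WT-3. The labels overlapped. KO-2, KO-3 and WT-3, the low arrays of Tbx3, were the highest for Tbx2, with a range of 48.6 to 51.9 over all 6. The log2 difference was 0.03 (SE 0.06, limma adjusted p = 0.9995). The second probe exceeded the limit on 2 arrays, KO-1 and KO-3, and was not tested.

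Tbx5 and Tbx20, factors of the early heart, each exceeded the background limit on 4 of 6 arrays. Tbx5 measured 57.4, 47.6 and 43.7 on KO-1, KO-2 and KO-3, against 48.4, 54.0 and 42.9 on WT-1, WT-2 and WT-3. KO-1, WT-2 and WT-1 were the 3 highest and WT-3 the lowest, the same order of arrays as for T, so the labels overlapped; the log2 difference was 0.02 (SE 0.09, limma adjusted p = 0.9995). Tbx20 measured 48.0, 43.6 and 50.7 under the KO label, against 47.8, 54.3 and 41.3 under the WT label. WT-2 was highest and WT-3 lowest, again with overlap, and the difference was -0.005 (SE 0.08, limma adjusted p = 0.9995).

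The other probes of both genes failed the filter on dim probes. For Tbx5 these were 2 probes above the limit on 0 arrays. For Tbx20, 2 probes exceeded it on 2 arrays each and 1 on 0 arrays. One of them measured 51.5, 39.8 and 33.5 under the KO label, against 43.4, 57.8 and 34.2 under the WT label, where KO-1 and WT-2 alone exceeded the limit. With KO-1 and WT-3 omitted, the log2 differences were 0.05 (SE 0.08) for Tbx2, -0.11 (SE 0.08) for Tbx5 and -0.08 (SE 0.09) for Tbx20, and none passed (limma adjusted p of 0.817, 0.519 and 0.703). At these intensities the normexp offset shrinks differences, so fold changes of Tbx2, Tbx5 and Tbx20 are understated.

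Tbx1, a factor of pharyngeal mesoderm, and Tbx4, a factor of the hindlimb and allantois, were not above the background limit on any array. The 2 Tbx1 probes lay between 31.4 and 45.0, and the 2 Tbx4 probes between 36.6 and 43.8. Neither gene was tested. These values bound the signal and do not show that the transcripts were absent.

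None of the members passed the comparison of the labels. Of the 8 members, 6 passed the filter on dim probes, and of these 0 were higher and 0 lower under the KO label at an adjusted p under 0.05 in limma. Over all 16005 features the percentage called was 0 in either direction, with 2.18% at an unadjusted p under 0.05, among which were 0 of the 6 members. After KO-1 and WT-3 were left out, 1 of the 6 members, Tbx3, fell and 0 rose. In that setting 8.28% of all features were called, 4.41% lower and 3.87% higher.

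**Figure D3:**
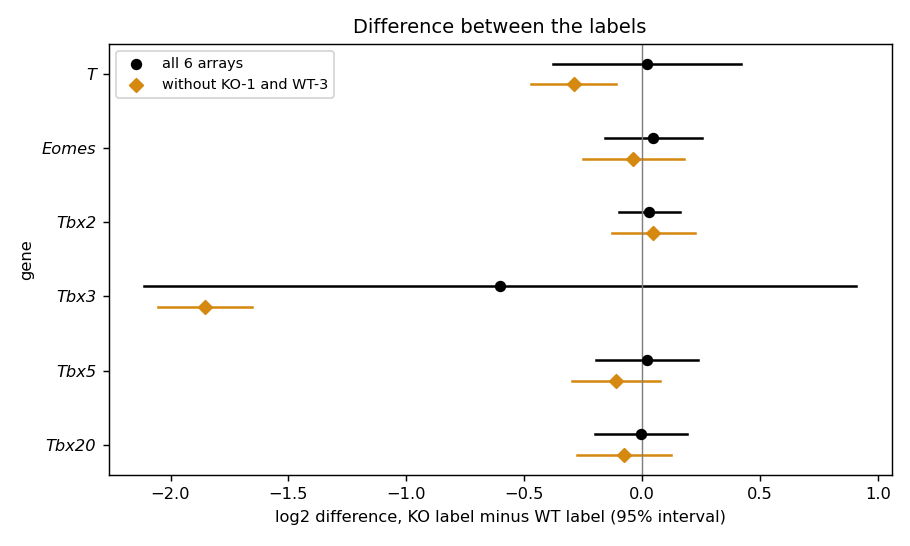
Log2 difference, KO label minus WT label, with its 95% interval from limma (horizontal axis) for the 6 tested T-box genes (rows), from all 6 arrays (black circles) and without KO-1 and WT-3 (orange diamonds). With all 6 arrays every interval covers 0, and that of Tbx3 runs from -2.11 to 0.91; without those arrays the intervals of Tbx3 and T lie below 0, and T did not pass after adjustment.

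The distance between arrays over the members was set mostly by Tbx3. The root mean square log2 distance over the 6 tested members was 0.118 between KO-1 and WT-1 and 0.0961 between KO-1 and WT-2. Between KO-1 and KO-2 it was 0.769, and between KO-1 and KO-3 0.696. WT-3 lay 0.125 from KO-2 and 0.183 from KO-3, but 0.872 from WT-1 and 0.864 from WT-2. Over the 5 tested members other than Tbx3 the distances were smaller. KO-1 then lay 0.107 from WT-1 and 0.0940 from WT-2, and 0.2275 from KO-2 and 0.229 from KO-3. WT-3 lay 0.132 from KO-2 and 0.158 from KO-3, and 0.243 from WT-1 and 0.299 from WT-2. The brightest Eomes probe did not follow this order, since KO-1 differed from KO-3 by 1.01-fold, less than from WT-1 (1.05-fold) or WT-2 (1.10-fold). For Tbx3 alone, the fold between arrays was 3.56 to 5.12 for each pair across the high and low sets. For the brightest Eomes probe the fold was 1.01 to 1.21 over all pairs.

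Of the rest of the T-box family, 5 of 9 genes were tested, and 0 rose or fell. Tbx6, which drives paraxial mesoderm and is a target of T, measured 474, 185 and 177 on KO-1, KO-2 and KO-3, against 555, 536 and 141 on WT-1, WT-2 and WT-3. Its arrays split as those of Tbx3 did, with a ratio of 3.93 between the extremes. The log2 difference was -0.45 (SE 0.54, limma adjusted p = 0.9995), and -1.48 (SE 0.08, limma adjusted p = 1.185e-06) without KO-1 and WT-3. Tbx10, near the background limit of 46.2, measured 60.6, 58.0 and 66.3 under the KO label, against 53.7, 52.3 and 54.2 under the WT label. The labels did not overlap, as in 6.93% of all features, and the log2 difference of 0.15 (SE 0.06) did not pass. Tbr1, a cortical factor closely related to Eomes, differed by 0.06 (SE 0.06). With KO-1 and WT-3 omitted, Tbx10 differed by 0.16 and Tbr1 by 0.09, and neither passed. The median of the 5 was 0.03, against 0.003 over all features.

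Signals that act upstream of T and Eomes showed no call, with 16 of 18 genes tested, 7 higher and 9 lower under the KO label and a median log2 difference of -0.04. Smad3, a mediator of Nodal signals, differed by 0.29 (SE 0.11), Tcf7l1, a repressor in the Wnt pathway, by 0.14 (SE 0.06) and Foxh1, a DNA-binding partner of Smads, by -0.20 (SE 0.14), all with a limma adjusted p of 0.9995. Smad3 measured 619, 725 and 776 under the KO label, against 514, 569 and 645 under the WT label, and the labels overlapped between KO-1 and WT-3. Without KO-1 and WT-3, 2 of the 16 rose, Smad3 (0.46) and Nodal (0.39), the streak-inducing ligand. In the same setting 4 fell: the mesoderm-inducing ligand Bmp4 differed by -1.909, its mediator Smad1 by -1.21, Lef1 by -0.51 and Wnt3 by -0.42 on the log2 scale. Of all features, 3.87% rose and 4.41% fell there. Tcf7l1 (0.16) and Foxh1 (-0.33) did not pass.

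Among genes downstream of T and Eomes, all 20 were tested, 15 were lower and 5 higher under the KO label, and 0 passed, with a median of -0.14. Over all 16005 features, 7780 were lower and 8225 higher. The 3 with the smallest p were Gsc, an organizer gene, at 0.22 (SE 0.12), Msgn1, a presomitic mesoderm factor, at -0.17 (SE 0.10), and Mesp2 at -0.18 (SE 0.13). On each array, the median of this list, relative to each gene's own mean, was 0.25, -0.28 and -0.18 on KO-1, KO-2 and KO-3, against 0.26, 0.35 and -0.38 on WT-1, WT-2 and WT-3. The sign thus followed the high and low arrays of Tbx3 rather than the labels. With KO-1 and WT-3 left out, 14 of the 20 fell and Foxa2 and Gsc (2 genes) rose; among those that fell, Mesp1, which marks the first mesoderm, differed by -2.08 and Evx1, a posterior streak gene, by -1.33. The shares over all features in that fit were 4.41% lower and 3.87% higher. Gsc then differed by 0.38, Msgn1 by -0.33 and Mesp2 by -0.41.

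Heart partners of Tbx5 and Tbx20 were lower under the KO label in 10 of 10 genes tested, out of 14 listed, and 0 passed, with a median of -0.23. Of all 16005 features, 7780 were lower and 8225 higher. Smarcd3, a remodelling subunit that works with Tbx5, differed by -0.21 (SE 0.11), Myl7, an atrial myosin light chain, by -0.68 (SE 0.51) and Gata4, a zinc finger factor of the heart, by -0.42 (SE 0.36), each with a limma adjusted p of 0.9995. Some of the list lay near the background limit of 46.2, such as Smarcd3 (42.9 to 70.8) and Nkx2-5 (43.1 to 62.7). The per-array medians were 0.17, -0.28 and -0.26 under the KO label, against 0.22, 0.34 and -0.25 under the WT label. Their sign followed the high and low arrays of Tbx3 rather than the labels, so the genes are not independent counts of a label difference. When KO-1 and WT-3 were left out, 7 of the 10 fell, against 4.41% of all features, with Smarcd3 at -0.38, Myl7 at -1.65 and Gata4 at -1.10.

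The naive pluripotency network in which Tbx3 acts in ES cells ran, by its median, the other way on the arrays. All 12 genes were tested, 10 were higher and 2 lower under the KO label, and 0 passed, with a median of 0.07. Among all 16005 features, 8225 were higher and 7780 lower. Klf5 differed by 0.22 (SE 0.09), Socs3 by 0.20 (SE 0.11) and Klf4 by -0.09 (SE 0.07), each with a limma adjusted p of 0.9995. The per-array medians were -0.09, 0.10 and 0.11 under the KO label, against -0.11, -0.12 and 0.08 under the WT label, so that the median was below 0 on the arrays high for Tbx3 and above 0 on the others. Not every gene followed the median: Stat3 measured 367, 228 and 243 under the KO label, against 326, 379 and 207 under the WT label, and was high where Tbx3 was high. In the fit that omitted KO-1 and WT-3, 4 of the 12 rose and 1, Stat3, fell, against 3.87% and 4.41% of all features. Klf5 (0.32) and Socs3 (0.37) were among those that rose, and Klf4 (-0.04) did not pass.

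**Figure D4:**
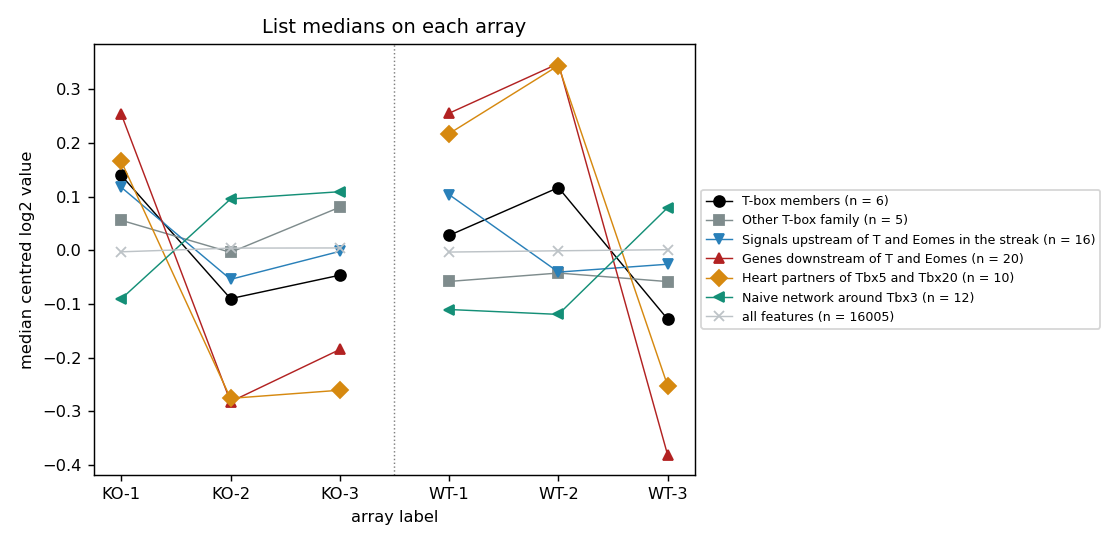
Median over each gene list of the log2 values after subtraction of each gene's own mean over the 6 arrays (vertical axis), on each array (horizontal axis), with the number of genes tested in the legend. Genes downstream of T and Eomes and heart partners were above 0 on KO-1, WT-1 and WT-2 and below 0 on KO-2, KO-3 and WT-3, the naive network had the opposite signs, and the median of all features stayed near 0.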

How the data were processed

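The analysis started from the intensities deposited by the authors, on a linear scale and with 1 value per probe and array. The 6 columns shared a common distribution; their normalization is not stated there. A second deposited table has 12 value columns whose running numbers match no sample label, and these were not used, so no detection p-values entered. Of 46632 probes, the platform annotation named 29976 and the symbol column of that table, matched to RefSeq symbols, 7384. Of probes under an older name of a member, 1 was left out by the exact-symbol rule. Background was corrected by normexp with an offset of 50, and log2 values were used without a further quantile step (limma 3.58.1, R 4.3.3). Probes had to exceed a background limit on 3 or more arrays, which 22491 did; the limit was the 95th percentile of a normal distribution around the array's most frequent intensity. Each gene was represented by its brightest kept probe, which gave 16005 features. The labels were compared with lmFit and eBayes (two-sided, Benjamini-Hochberg over all features, threshold 0.05), without covariates.

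The members and lists were chosen with earlier results of these data known. Named genes were all members, the 3 list genes with the smallest p, those called, and the 3 nearest patterns of each member spanning at least 1; Nodal, Mesp1, Evx1, Foxa2 and the other genes named without KO-1 and WT-3 were chosen after their values were seen. The reported fit did not pair arrays by replicate number. Deviations of same-numbered KO and WT arrays correlated at 0.617, -0.306 and 0.542, and those of other KO and WT pairs at -0.725 to 0.544. Correlations were positive only within the high or within the low arrays of Tbx3, so they cannot decide whether the numbers pair the arrays. The fit was tested on simulated data.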

Additional observations from a re-analysis of the deposited data

How the results depend on the processing

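The number of called features was 0 in each alternative run except the omission of KO-1 and WT-3 together. That omission gave 1326 of 16005 features, or 8.28%. It gave 1 of the 6 tested T-box members and 34 of the 60 tested genes of the family and partner lists. The T-box member and list counts were otherwise 0 as well: with no background correction, a quantile step, no filter, a stricter filter, each probe as its own feature, trended and robust moderation (386 features at an unadjusted p under 0.05, against 349 in the reported fit), each array left out, the replicate block, and slide position as a block. In the replicate block the Tbx3 difference was -0.603 (SE 0.38, limma adjusted p = 0.949), and the block changed no call. Leaving out 1 array at a time, the difference ran from -0.156 to 0.127 for T, from 0.000269 to 0.133 for Eomes, from 0.0184 to 0.0422 for Tbx2, from -1.282 to -0.249 for Tbx3, from -0.0552 to 0.0803 for Tbx5 and from -0.0722 to 0.0610 for Tbx20. The sign of T turned without KO-1 (-0.115) and without WT-3 (-0.156), that of Tbx5 without KO-1 (-0.0552) and without WT-3 (-0.0353), and that of Tbx20 without KO-2 (0.0352) and without WT-2 (0.0610). Without KO-1 and WT-3 together, T (-0.291), Eomes (-0.0376) and Tbx5 (-0.112) turned, and with the slide position block Tbx20 (0.032) and Tbx3 (0.0237). The cause was not tested. Slide position and the joint omission were added after the data were seen. Signals near background limit Tbx2, Tbx5 and Tbx20, and 3 arrays per label limit every value.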
